A study of Mus musculus with 6 samples.

Results

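The extracellular matrix of the mammary stroma was examined through 44 genes for fibroblast-made matrix proteins, matrix-modifying enzymes, matricellular proteins and fibroblast markers. They were chosen by symbol from the table of the series, and all 44 were found among its 24421 genes. RNA was measured in 3 libraries of mammary tumour and 3 of mammary gland from female mice aged 5 months on the FVB/NJ background. The tumour donors bore tumours and are labelled MMTV-Tg(LINK-A), and the gland donors are labelled Tg(LINK-A). Both groups therefore carry a LINK-A transgene, which encodes a long non-coding RNA that was not analysed here, and MMTV is named for the tumour donors alone. MMTV is the mouse mammary tumour virus promoter, which is active mainly in mammary epithelium. The label of the transgene and the tissue differ together, and their effects cannot be told apart. The labels do not say whether the libraries of a group came from separate animals, so p-values measure the spread between these samples, which may be technical. No unit is named for the values. They were taken as FPKM, fragment values scaled by transcript length and library size, and the number of reads behind them is unknown.

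Fibroblasts of the mammary fat pad and of the sheath around ducts make most of the matrix of the gland. Collagen fibrils are spaced by small leucine-rich proteoglycans, elastic fibres are built from elastin on a scaffold of fibrillin microfibrils, and lysyl oxidases cross-link both. Matricellular proteins such as tenascins, thrombospondins, periostin, SPARC and osteopontin are secreted into the matrix and act on cell adhesion and growth factors more than on structure, and several of them are also made by epithelial, vascular and immune cells.

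Each tumour library held 486080 to 582996 FPKM in all, and each gland library 495985 to 510957 FPKM. Tumour 3 stood apart from tumours 1 and 2 in most of the 44 genes, and values without it are given for the genes that it moves most. Glands 1 and 3 held more lymph node RNA than gland 2, with summed levels of 6 lymph node genes at 134 and 138 FPKM against 24.2 FPKM. Gland 2 held more skeletal muscle RNA, with 11169 FPKM over 6 muscle genes, against 13.2 and 998 FPKM in glands 1 and 3. Those 6 muscle genes summed to 5.79 to 26.8 FPKM in the tumours. In bulk tissue, fewer fibroblasts and less RNA per fibroblast cannot be told apart.

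Most of the matrix genes were lower in the tumours, and a few matricellular genes were higher. Genes averaging 1 FPKM or more over the 6 libraries were tested, which left 43 members, of which 34 passed an adjusted p of 0.05 (limma, Benjamini-Hochberg over all 13364 tested genes), where 45.1% of all tested genes passed. Of these, 29 were lower and 5 higher in the tumours, against 23.1% and 21.9% of all tested genes. Both shares also stand beside the counts by class below. At least a 2-fold change was reached by 26 of those that were lower and 3 that were higher, against 14.5% and 7.67% of all tested genes. The median log2 fold change of the 43 was -1.41, against 0.01 for all tested genes. All log2 fold changes are tumour minus gland on the log2(FPKM + 1) scale, on which the changes of weakly expressed genes come out too small. The 3 tumour values lay below the 3 gland values for 33 of the 43 and above them for 5, against 29.0% and 29.3% of all tested genes (58.2% in either direction). Fbn2, the fibrillin of developing tissue, was the member not tested, at 0.449, 0.702 and 0.0745 FPKM in tumours 1 to 3 and 0.647, 0.451 and 0.791 FPKM in glands 1 to 3. The 44 genes together made up 0.393%, 0.413% and 0.200% of the FPKM sum of the 3 tumours, and 0.804%, 0.851% and 0.833% of that of the 3 glands. Gelsolin (Gsn) was the highest of them in every gland, and osteopontin (Spp1) in every tumour, where it made up 43.3% to 53.3% of their sum.

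**Figure D1:**
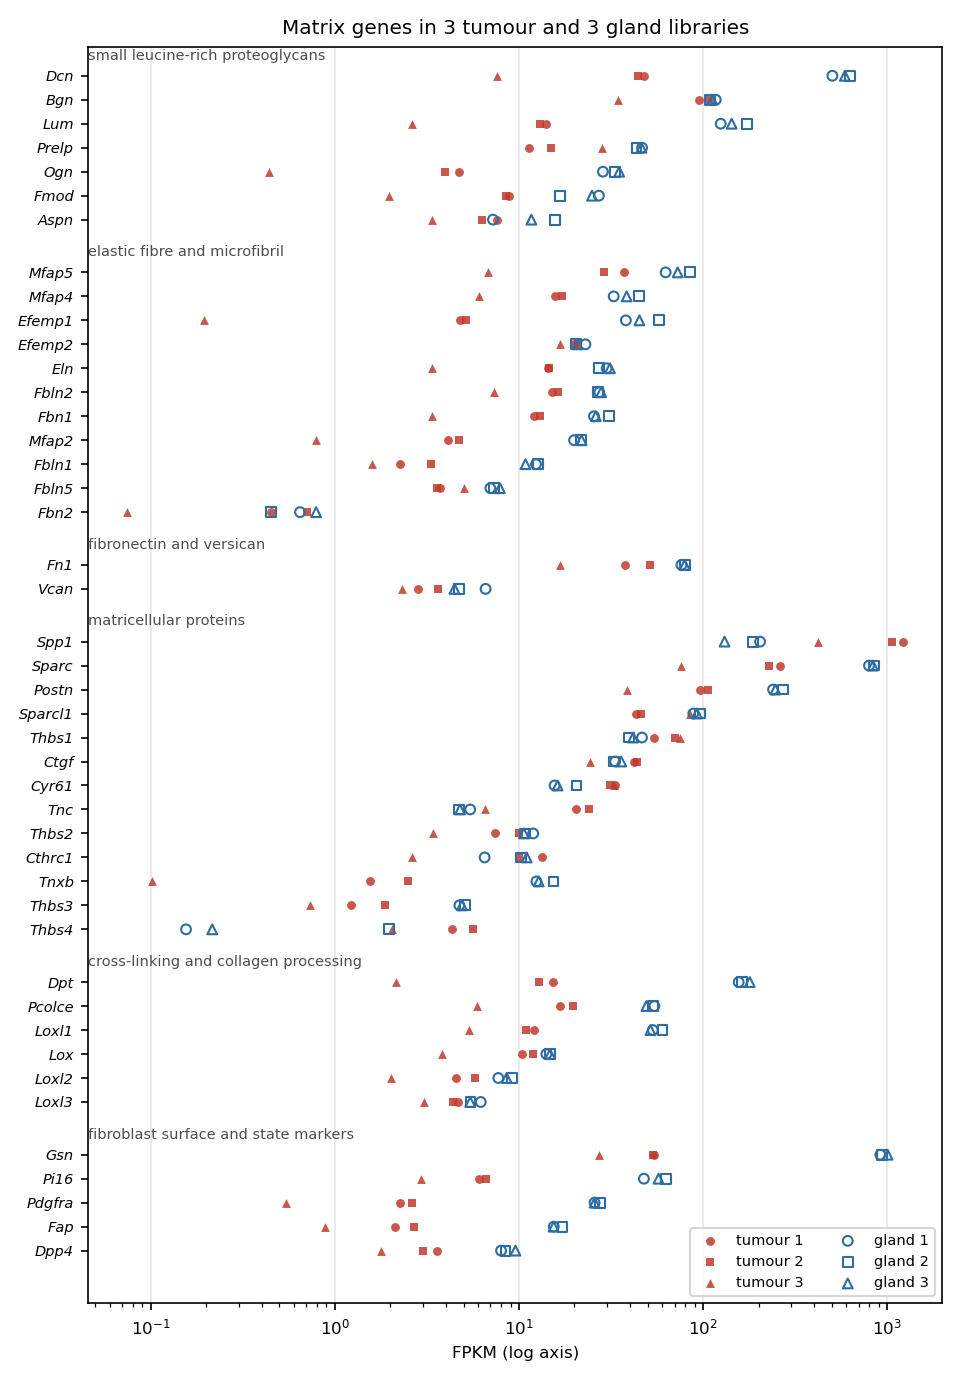
Level of each of the 44 matrix genes in FPKM (log axis) in tumours 1 to 3 (filled red) and glands 1 to 3 (open blue), grouped by role and sorted by mean level. The gland points cluster tightly, most tumour points lie to their left, and the triangles of tumour 3 lie leftmost for most genes, while Spp1, Tnc, Thbs1, Thbs4 and Cyr61 lie to the right of the gland points.

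Of the 7 small leucine-rich proteoglycans, 5 fell and 2 did not pass. Decorin (Dcn), which coats collagen fibrils and binds TGF-beta, stood at 47.9, 44.5 and 7.61 FPKM in tumours 1 to 3, against 504, 631 and 589 FPKM in glands 1 to 3. The groups were far apart (-4.42 on the log2 scale, SE 0.63, adjusted p = 0.00167). Lumican (Lum), which regulates fibril diameter, stood at 14.1, 13.0 and 2.63 FPKM in the tumours and 125, 173 and 143 FPKM in the glands (-4.00, SE 0.53, adjusted p = 0.00115). Osteoglycin (Ogn) was at 4.75, 3.98 and 0.441 FPKM in the tumours and 28.6, 33.2 and 35.0 FPKM in the glands (-3.26, SE 0.50). In each of these 3 genes tumour 3 was the lowest library by a wide margin, and without it the log2 fold changes were -3.60 for Dcn, -3.33 for Lum and -2.63 for Ogn. Fibromodulin (Fmod) fell by 1.84 (SE 0.47), or by 1.28 without tumour 3 (adjusted p = 0.00349). It stood at 8.82, 8.55 and 1.98 FPKM in the tumours and 27.2, 16.7 and 24.9 FPKM in the glands. Its call was lost without gland 1 or gland 3 (-1.71 and -1.77, adjusted p = 0.056 and 0.0608). Prelp, a proteoglycan that anchors basement membranes to connective tissue, fell by 1.37 (SE 0.29) with another order of the tumours: it stood at 11.4, 15.0 and 28.1 FPKM in tumours 1 to 3 and 46.6, 43.5 and 46.2 FPKM in the glands, so that tumour 3 was the highest tumour. Biglycan (Bgn), the closest relative of decorin, was much less different, at 94.6, 109.6 and 34.4 FPKM in the tumours and 117, 109 and 112 FPKM in the glands, and did not pass (-0.66, 95% interval -1.62 to 0.30, adjusted p = 0.225, and -0.14 without tumour 3). Asporin (Aspn) overlapped between the groups, at 7.62, 6.27 and 3.39 FPKM in the tumours and 7.22, 15.7 and 11.7 FPKM in the glands (-0.89, adjusted p = 0.0682). It passed without gland 1 (-1.16, adjusted p = 0.0344).

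All of these genes but Bgn, which is on the X chromosome, lie in 3 clusters of the mm10 genome, in which every tested neighbour of the family other than Aspn fell. On chromosome 10, Dcn (97479609 to 97518143) and Lum (97565128 to 97572703) are followed by keratocan (Kera) and epiphycan (Epyc). Kera and Epyc were both listed at 0 in all 3 tumours, with 1.57 to 1.90 and 0.825 to 3.32 FPKM in the glands, and were too low to be tested. On chromosome 13, Ecm2, Aspn (49544443 to 49567565), osteomodulin (Omd) and Ogn (49608046 to 49624501) follow one another. Ecm2 fell by 2.51 (SE 0.24, adjusted p = 3.2e-04). Omd fell by 1.29 (SE 0.28, adjusted p = 0.00912) and had no call under quantile normalization (adjusted p = 0.0733). Aspn and Ogn lie within the span of Cenpp on the other strand, and so does Omd between them. Reads of the opposite strand cannot be separated if strand was not used in counting, which no source used here states. Prelp (133910304 to 133921414) and Fmod (134037254 to 134048277) lie on chromosome 1.

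Elastic fibre genes fell with smaller changes and 1 clear exception. Of the 10 tested, 9 fell and 1 did not pass. The largest change was that of Efemp1, which encodes fibulin-3, at 4.78, 5.13 and 0.194 FPKM in tumours 1 to 3 and 38.1, 57.5 and 45.1 FPKM in glands 1 to 3 (-3.76, SE 0.61, adjusted p = 0.00281, and -2.99 without tumour 3). Mfap2, the microfibril-associated glycoprotein MAGP-1, was at 4.12, 4.75 and 0.788 FPKM in the tumours and 19.9, 21.7 and 21.9 FPKM in the glands (-2.56, SE 0.42, and -2.03 without tumour 3). Fibulin-1 (Fbln1) fell by 1.96 (SE 0.20, adjusted p = 4.4e-04), with 1.59 to 3.34 FPKM in the tumours and 10.8 to 12.6 FPKM in the glands. Its call, unlike that of the other elastic fibre genes, also held with glands 1 and 3 left out together (-2.04, adjusted p = 0.0417). Elastin itself (Eln) stood at 14.3, 14.6 and 3.37 FPKM in the tumours and 29.9, 27.2 and 31.2 FPKM in the glands (-1.58, SE 0.48, adjusted p = 0.0324). Much of the size of that difference rested on tumour 3, since the log2 fold change was -0.97 without it. The call of Eln held without tumour 3 (adjusted p = 5.9e-04) and was lost without gland 1, 2 or 3 (adjusted p = 0.078, 0.0702 and 0.0915). Fibrillin-1 (Fbn1), the main microfibril protein, fell by 1.61 (SE 0.43), or by 1.07 without tumour 3 (adjusted p = 7.2e-04). It lost its call without gland 2 or gland 3 (adjusted p = 0.0622 and 0.0587). Mfap5, or MAGP-2, fell by 1.83 (SE 0.56, adjusted p = 0.0343), or by 1.12 without tumour 3 (adjusted p = 0.00251). The call of Mfap5 was lost without gland 1, 2 or 3 or tumour 2 (adjusted p = 0.066, 0.0937, 0.0894 and 0.0501). Mfap4 fell by 1.61 (SE 0.35) and fibulin-2 (Fbln2) by 1.11 (SE 0.27), the second without a call when gland 3 was left out (-1.09, adjusted p = 0.0524). Fibulin-5 (Fbln5), which carries elastin onto microfibrils, fell by 0.72 (SE 0.15), and here tumour 3 was the highest tumour, at 5.03 FPKM, against 3.75 and 3.60 FPKM in tumours 1 and 2 and 6.99, 7.29 and 7.87 FPKM in the glands. The exception was Efemp2, or fibulin-4, which brings lysyl oxidase to elastin: at 19.9, 21.0 and 16.8 FPKM in the tumours and 23.0, 20.5 and 20.8 FPKM in the glands, its groups overlapped (-0.15, 95% interval -0.44 to 0.13, adjusted p = 0.338). Efemp2 overlaps Mus81 on the other strand by 173 bases in the annotation. Of members whose overlap is not given elsewhere, Loxl2, Tnc, Dpp4 and Dpt had the longest on the other strand. These measured 74219, 67162, 55161 and 20298 bases, with genes that are not listed by name in the data.

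Fibronectin (Fn1), the adhesive glycoprotein on which other matrix proteins assemble, stood at 37.7, 51.4 and 16.8 FPKM in tumours 1 to 3 and 76.3, 79.6 and 79.4 FPKM in glands 1 to 3 (-1.27, SE 0.37, adjusted p = 0.0279). The gland values were within a few FPKM of each other and the tumour values spread widely. Without tumour 3 the log2 fold change of Fn1 was -0.82, and its call held (adjusted p = 0.00438). The call was lost without gland 1, 2 or 3 (adjusted p = 0.0656, 0.0708 and 0.0788). Versican (Vcan), a large hyaluronan-binding proteoglycan, was low in both groups, at 2.84, 3.65 and 2.30 FPKM in the tumours and 6.58, 4.72 and 4.46 FPKM in the glands (-0.67, SE 0.20, adjusted p = 0.0304). The call of Vcan was the least stable among the genes that fell, lost without any 1 library other than tumour 2 (adjusted p between 0.054 and 0.105) and under quantile normalization (-0.32, adjusted p = 0.198).

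The 13 matricellular genes moved in both directions: 5 rose, 4 fell and 4 did not pass, so that all 5 members of the whole list that rose belong to this class. Of all tested genes 21.9% were higher and 23.1% lower, and the 30.8% of this class that fell is near the second share. Osteopontin (Spp1), a phosphoprotein made by macrophages and by epithelial cells, including those of the mammary gland, stood at 1221, 1057 and 421 FPKM in tumours 1 to 3, against 204, 186 and 131 FPKM in glands 1 to 3. Every tumour was above every gland (2.25 on the log2 scale, SE 0.41, adjusted p = 0.00437), and the ratio of the means was 5.19. Without tumour 3 the log2 fold change of Spp1 was 2.73. Cyr61, also called Ccn1, a matricellular protein of the CCN family and a known target of the YAP and TEAD factors, was the most even of the genes that rose, at 33.1, 31.3 and 32.7 FPKM in the tumours and 15.6, 20.5 and 16.2 FPKM in the glands (0.86, SE 0.13, adjusted p = 0.00178). Thrombospondin 1 (Thbs1), which activates latent TGF-beta and inhibits vessel growth, was at 54.3, 70.8 and 75.3 FPKM in the tumours and 46.6, 39.4 and 41.7 FPKM in the glands (0.63, SE 0.15, adjusted p = 0.0127), and its call was lost by a narrow margin without gland 3, without tumour 2 and at a common sum per library (adjusted p = 0.0506, 0.0507 and 0.0544).

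Tenascin C (Tnc), a glycoprotein of embryonic, healing and tumour stroma, stood at 20.4, 24.0 and 6.50 FPKM in tumours 1 to 3 and 5.43, 4.73 and 4.78 FPKM in glands 1 to 3 (1.41, SE 0.43, adjusted p = 0.0337). Tumour 3 was close to the glands, and the log2 fold change was 1.95 without it. The call of Tnc was lost without any other 1 library (adjusted p between 0.071 and 0.102) and with tumours 1 and 2 averaged as 1 sample (adjusted p = 0.097). Thrombospondin 4 (Thbs4), which is abundant in tendon and muscle, was low in both groups, at 4.31, 5.61 and 2.04 FPKM in the tumours and 0.155, 1.97 and 0.216 FPKM in the glands (1.56, SE 0.45, adjusted p = 0.0274). Its highest gland, gland 2, is also the gland with the most skeletal muscle RNA, and the part of that RNA in the value was not tested. Without gland 2 the log2 fold change of Thbs4 was larger by 0.44 (adjusted p = 0.00722). The call of Thbs4 was lost without gland 1 or 3 or tumour 1 or 2 (adjusted p = 0.0827, 0.0927, 0.0741 and 0.0922) and with tumours 1 and 2 averaged (adjusted p = 0.0799).

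Among the matricellular genes that fell, SPARC (Sparc), a collagen-binding protein that fibroblasts and vessels secrete, had the highest level, at 260.1, 229 and 76.0 FPKM in tumours 1 to 3, against 796, 851 and 836 FPKM in glands 1 to 3 (-2.31, SE 0.44, adjusted p = 0.00536). Periostin (Postn), which links collagen to other matrix proteins and is often high in tumour stroma, stood at 96.1, 106 and 38.7 FPKM in the tumours and 239.8, 273 and 247 FPKM in the glands (-1.77, SE 0.36, adjusted p = 0.00724). Both had tumour 3 well below the other tumours, and without it the log2 fold changes were -1.76 for Sparc and -1.32 for Postn. Tenascin X (Tnxb), the tenascin of loose connective tissue, fell by 2.76 (SE 0.40), or by 2.28 without tumour 3, with 1.56, 2.49 and 0.101 FPKM in the tumours and 12.4, 15.4 and 12.8 FPKM in the glands, opposite in direction to Tnc. Thbs3 fell by 1.41 (SE 0.21), at 0.732 to 1.88 FPKM in the tumours and 4.74 to 5.11 FPKM in the glands. The Thbs3 gene is overlapped over its whole length by the annotated span of Mtx1 on the other strand, so its level is uncertain.

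The 4 matricellular genes that did not pass were Ctgf, Cthrc1, Thbs2 and Sparcl1. Ctgf, also called Ccn2, the CCN family relative of Cyr61, overlapped between the groups, at 42.3, 43.7 and 24.3 FPKM in tumours 1 to 3 and 33.3, 32.8 and 35.9 FPKM in glands 1 to 3 (0.06, 95% interval -0.47 to 0.59, adjusted p = 0.835). Its sign turned under quantile normalization and at a common sum per library (-0.04 and -0.00313), and Ctgf passed as higher without tumour 3 (0.33, adjusted p = 0.0259). Cthrc1, a secreted protein linked to collagen deposition, stood at 13.4, 10.0 and 2.64 FPKM in the tumours and 6.51, 10.3 and 11.0 FPKM in the glands (-0.27, 95% interval -1.46 to 0.92, adjusted p = 0.684), and at 0.32 without tumour 3 (adjusted p = 0.299). Thbs2 did not pass (-0.70, adjusted p = 0.114), although it did without tumour 2 (-0.98, adjusted p = 0.0433), and its tumour values of 3.42 to 10.0 FPKM lay below its gland values of 10.6 to 11.9 FPKM. Sparcl1, the SPARC relative hevin, which is high in vessels, stood at 43.0, 46.1 and 85.2 FPKM in the tumours and 88.5, 95.9 and 92.6 FPKM in the glands (-0.73, adjusted p = 0.0516). Tumour 3 was close to the glands there, and without it Sparcl1 passed (-1.03, adjusted p = 3.0e-04), as it did under quantile normalization and median-of-ratios scaling (adjusted p = 0.0451 and 0.0468).

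**Figure D2:**
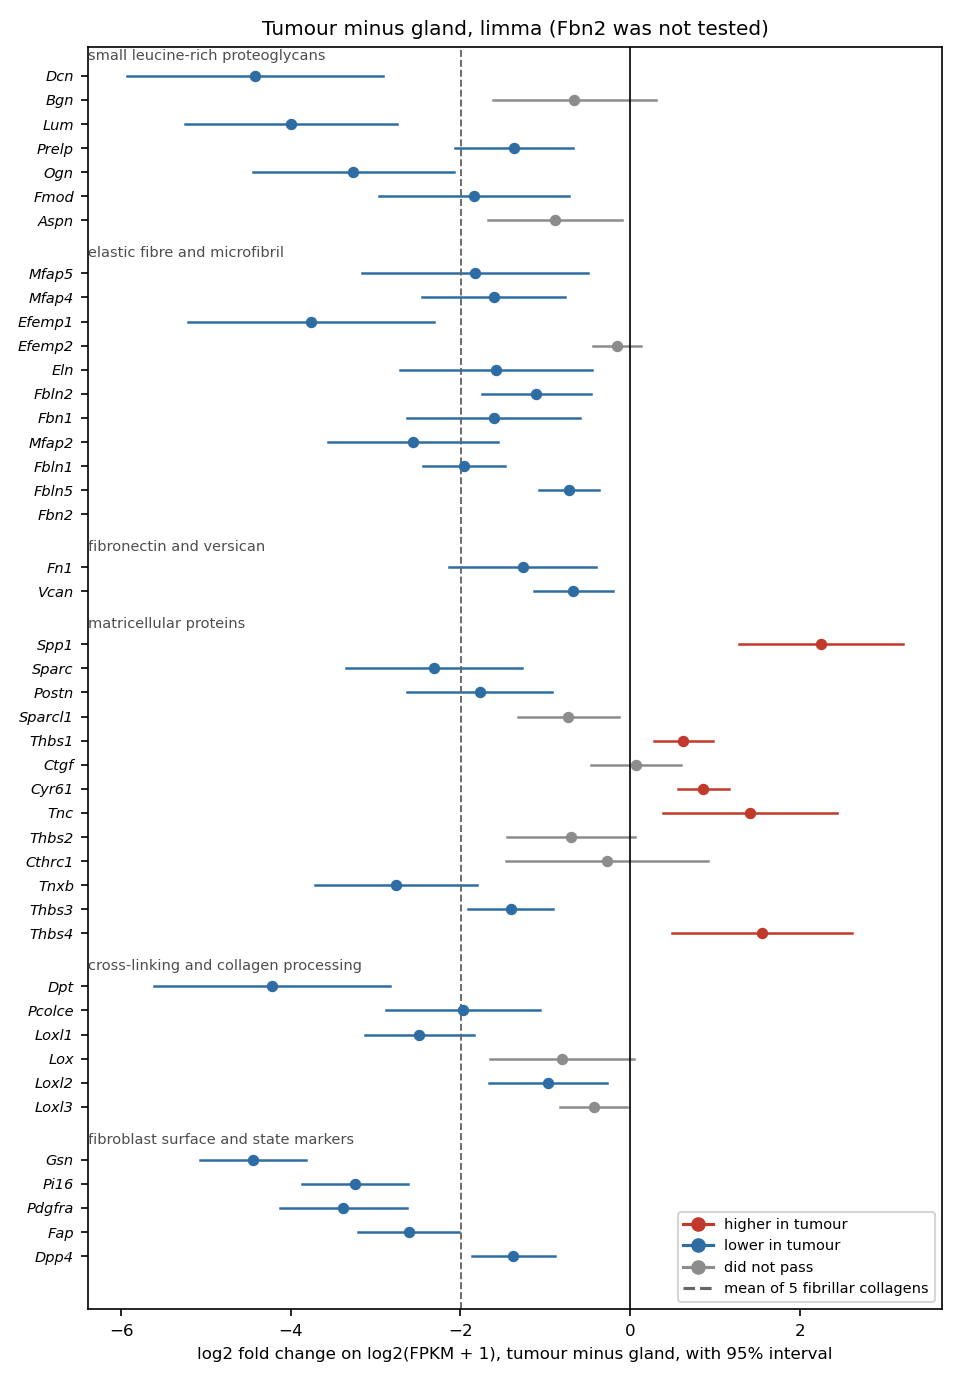
Log2 fold change of each tested matrix gene, tumour minus gland, on log2(FPKM + 1), with its 95% interval from limma, grouped by role. Red marks the 5 genes that rose, blue the 29 that fell and grey the 9 that did not pass, and the dashed line is the mean change of 5 fibrillar collagens at -1.99.

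The start-site regions of the matricellular genes that rose are shown because these genes moved against the rest of the list, and that of dermatopontin (Dpt) because it had one of the largest falls. RefSeq promoter windows, 250 bases before to 50 bases after the start, were matched for 28 of the 44 members in GRCm38.p6, and Thbs1 is named only. The windows read 5′ to 3′ on the strand of the gene, in lower case. Capitals mark the motifs TATAAA (the letters of a TATA box, which works close before a start site), TGANTCA (bound by AP-1) and GGAATG (bound by TEAD), searched on both strands, so that CATTCC is GGAATG on the other strand. The CArG box, bound by SRF, was searched too. They lie at chr5:104434861-104435160 (Spp1, plus strand), chr4:64046966-64047265 (Tnc, minus strand), chr3:145649936-145650235 (Cyr61, minus strand), chr13:92794769-92795068 (Thbs4, minus strand) and chr1:164796413-164796712 (Dpt, plus strand).
Spp1: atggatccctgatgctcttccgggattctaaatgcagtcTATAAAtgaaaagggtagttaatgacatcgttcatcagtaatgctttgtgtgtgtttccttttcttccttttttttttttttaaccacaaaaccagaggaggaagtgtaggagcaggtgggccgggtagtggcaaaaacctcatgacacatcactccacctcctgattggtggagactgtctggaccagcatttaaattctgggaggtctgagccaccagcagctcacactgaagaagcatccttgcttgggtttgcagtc
Tnc: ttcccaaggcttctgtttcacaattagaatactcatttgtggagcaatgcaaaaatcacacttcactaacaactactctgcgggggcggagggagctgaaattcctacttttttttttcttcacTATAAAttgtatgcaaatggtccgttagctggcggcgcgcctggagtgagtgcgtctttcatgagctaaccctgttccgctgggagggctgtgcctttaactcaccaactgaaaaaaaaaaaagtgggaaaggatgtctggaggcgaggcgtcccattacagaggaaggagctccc
Cyr61: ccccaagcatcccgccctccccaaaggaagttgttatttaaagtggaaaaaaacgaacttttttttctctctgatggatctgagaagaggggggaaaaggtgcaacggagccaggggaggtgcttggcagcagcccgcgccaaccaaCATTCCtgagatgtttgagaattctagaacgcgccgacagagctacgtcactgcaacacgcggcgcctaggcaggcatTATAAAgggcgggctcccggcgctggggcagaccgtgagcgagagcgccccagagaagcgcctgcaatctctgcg
Thbs4: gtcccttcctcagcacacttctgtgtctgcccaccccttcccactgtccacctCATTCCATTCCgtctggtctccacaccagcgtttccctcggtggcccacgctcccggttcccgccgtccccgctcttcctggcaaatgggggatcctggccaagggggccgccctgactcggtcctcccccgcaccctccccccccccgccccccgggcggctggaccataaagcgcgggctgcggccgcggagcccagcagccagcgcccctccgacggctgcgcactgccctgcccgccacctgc
Dpt: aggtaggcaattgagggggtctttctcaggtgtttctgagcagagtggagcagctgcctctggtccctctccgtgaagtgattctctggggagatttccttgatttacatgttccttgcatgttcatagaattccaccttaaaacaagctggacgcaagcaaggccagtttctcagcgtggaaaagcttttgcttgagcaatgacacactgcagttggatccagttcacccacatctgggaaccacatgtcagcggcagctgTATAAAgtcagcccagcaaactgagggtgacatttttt
A TATAAA began at -211 in Spp1, -126 in Tnc and -25 in Cyr61, counted in bases from the start site, and 12 bases after it in Dpt. The first listed start site was used, and Spp1 and Tnc each have 2 listed, so their distances hold for that start alone. A CATTCC began at -103 in Cyr61. Thbs4 held 2 overlapping CATTCC matches and no TATAAA. Of the genes that rose and had a window, 3 of 4 held TATAAA and 2 of 4 GGAATG. Among those that fell 3 and 2 of 20 did, and among those that did not pass 2 and 0 of 4. The shares were 14.2% and 14.6% of 27025 windows of the same length. TGANTCA was in none of the 4 that rose and in 2 of the 20 that fell, against 7.93% of all windows. The CArG box was in none of these members, against 1.57% of all. A match is a description of letters and not a site in use.

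Of 6 genes for cross-linking and collagen processing, 4 fell and 2 did not pass. All 6 had every tumour value below every gland value, as did 29.0% of all tested genes. Dermatopontin (Dpt), a small protein that binds decorin and speeds fibril formation, stood at 15.3, 12.9 and 2.13 FPKM in tumours 1 to 3, against 156, 162 and 179 FPKM in glands 1 to 3 (-4.22, SE 0.59, adjusted p = 0.00143, and -3.47 without tumour 3). Loxl1, the lysyl oxidase of elastic fibres, stood at 12.1, 10.9 and 5.35 FPKM in the tumours and 53.3, 60.2 and 51.8 FPKM in the glands (-2.49, SE 0.27, adjusted p = 5.3e-04). Pcolce, which speeds the removal of the procollagen C-terminal end, was at 16.6, 19.5 and 5.95 FPKM in the tumours and 54.3, 53.4 and 49.2 FPKM in the glands (-1.97, SE 0.38, and -1.49 without tumour 3). The other lysyl oxidases differed less. Loxl2 fell by 0.97 (SE 0.29, adjusted p = 0.0335), a call lost without gland 1, 2 or 3 or tumour 1 (adjusted p = 0.0684, 0.0915, 0.0936 and 0.0513) and under quantile normalization (adjusted p = 0.0537). Lox itself stood at 10.3, 12.0 and 3.79 FPKM in the tumours and 14.1, 14.7 and 14.7 FPKM in the glands and did not pass (-0.80, adjusted p = 0.109), although it passed without tumour 3 (-0.36, adjusted p = 0.0373). Loxl3 did not pass either (-0.43, 95% interval -0.83 to -0.03, adjusted p = 0.075), and it passed narrowly at a common sum per library (adjusted p = 0.0499). Loxl3 overlaps Htra2 on the other strand.

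All 5 fibroblast surface and state markers fell, and 4 of them kept their call even with glands 1 and 3 left out together. Gelsolin (Gsn), an actin-severing protein abundant in fibroblasts, stood at 54.1, 53.2 and 27.0 FPKM in tumours 1 to 3, against 918, 940.4 and 1005 FPKM in glands 1 to 3, the largest change of the list (-4.45, SE 0.26, adjusted p = 5.7e-05). The ratio of the gland mean to the tumour mean was 21.3. Pdgfra, the PDGF receptor that marks fibroblasts and fat cell progenitors, was at 2.25, 2.62 and 0.542 FPKM in the tumours and 25.7, 27.5 and 25.8 FPKM in the glands (-3.38, SE 0.31, adjusted p = 2.9e-04). Pi16, a marker of adventitial fibroblasts in mice, stood at 6.08, 6.66 and 2.92 FPKM in the tumours and 47.7, 62.8 and 57.2 FPKM in the glands (-3.24, SE 0.26, adjusted p = 1.7e-04). The groups were separate by a wide margin in each of these 3 genes. Fap, the fibroblast activation protein and a common marker of fibroblasts in tumours, was lower in these tumours, at 2.12, 2.68 and 0.881 FPKM, against 15.4, 17.2 and 15.4 FPKM in the glands (-2.61, SE 0.25, adjusted p = 3.3e-04). Dpp4, the peptidase of the same family and another marker of adventitial fibroblasts, fell by 1.38 (SE 0.21) and lost its call with glands 1 and 3 left out (adjusted p = 0.091).

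The genes did not fall by like amounts, and a comparison with the fibrillar collagens of the same library shows the spread. The 5 collagen genes Col1a1, Col1a2, Col3a1, Col5a1 and Col5a2 all fell. Col1a1 stood at 84.6, 125 and 45.4 FPKM in tumours 1 to 3 and 279.8, 254 and 250.1 FPKM in glands 1 to 3 (-1.72, SE 0.33, adjusted p = 0.00594), and Col3a1 fell most (-2.94, SE 0.50, and -2.30 without tumour 3). Their mean log2(FPKM + 1) was 5.06 ± 0.80 in the tumours and 7.05 ± 0.05 in the glands (SD, n = 3 each), a difference of -1.99, or -1.54 without tumour 3. This mean was subtracted from each gene in each library. The results are ratios, given as values with no test, and genes near 0 in the tumours are held up by the added 1. Of the 44 members, 12 had all tumours below all glands on this scale, 24 had all tumours above, and 8 overlapped. Since the collagens fell, most genes rise on this scale: of all 13364 tested genes 85.8% had all tumours above and 2.16% all tumours below, and their median change relative to collagens was 1.996. The mean was lower in the tumours for 13 of the 44 members and for 5.97% of all tested genes. The greatest fall relative to collagens was in Gsn (-2.46), followed by Dcn (-2.43), Dpt (-2.24), Lum (-2.01), Efemp1 (-1.77), Pdgfra (-1.39), Ogn (-1.27) and Pi16 (-1.26). Without tumour 3, these 8 values lay between -2.59 and -1.10. The level of Dcn relative to collagens, for example, was 0.27, -0.18 and -1.05 log2 units in tumours 1 to 3 and 1.89, 2.24 and 2.21 units in glands 1 to 3.

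Another group tracked the collagens closely. The level of Pcolce relative to collagens was -1.21, -1.32 and -1.36 log2 units in tumours 1 to 3 and -1.30, -1.30 and -1.35 units in glands 1 to 3, a difference of 0.02. Fbln1 (0.03), Fmod (0.14), Mfap5 (0.16), Postn (0.22), Fbn1 (0.38), Mfap4 (0.38) and Sparc (-0.33) also differed little on average from the change of the collagens. Of these, Postn, Fbn1 and Mfap4 had every tumour above every gland on this scale, as had 85.8% of all tested genes. Fibronectin was above the collagen change by a similar amount in every tumour: its level relative to collagens was -0.07, 0.03 and -0.01 in the tumours and -0.82, -0.73 and -0.66 in the glands, a difference of 0.72. Relative to collagens, Bgn (1.33), Lox (1.19), Thbs2 (1.29), Loxl3 (1.56), Cthrc1 (1.71), Efemp2 (1.84) and Ctgf (2.05) were higher in all 3 tumours than in all 3 glands, although none of these 7 had passed the test on its own level. All of them but Ctgf lay under the median of all tested genes on this scale. The values of Bgn and Lox were alike in the 3 tumours, at 1.23, 1.10 and 0.99 for Bgn and -1.84, -1.99 and -1.89 for Lox, where their FPKM had differed up to several fold. Spp1 lay 4.24 log2 units higher relative to collagens in the tumours than in the glands, Tnc 3.40 and Cyr61 2.85.

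**Figure D3:**
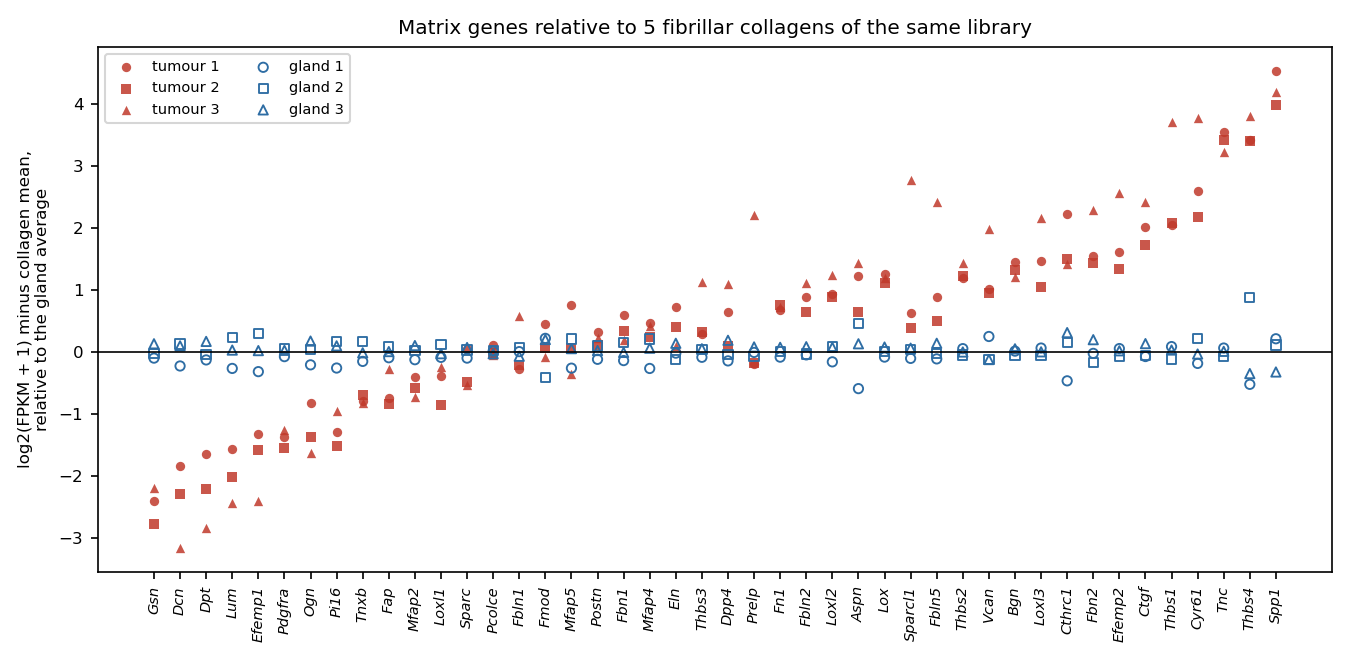
Each matrix gene's log2(FPKM + 1) minus the mean of 5 fibrillar collagens in the same library, set to 0 at the gland average, for tumours 1 to 3 (filled red) and glands 1 to 3 (open blue), sorted by the mean of the tumours. Gsn, Dcn, Dpt and Lum lie at -2.46 to -2.01 on average, Pcolce and Postn near 0, and Tnc, Thbs4 and Spp1 at 3.40 to 4.24.

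Tumour 3 had less matrix RNA than the other tumours for nearly all of these genes. It was the lowest tumour for 39 of the 44 members, or 88.6%, and for 39.4% of all tested genes. The median of tumour 3 minus the mean of tumours 1 and 2 was -1.14 on the log2(FPKM + 1) scale over the 44 members, against 0.01 over all tested genes. The difference was largest for Dcn (-2.45), Efemp1 (-2.32), Dpt (-2.26) and Mfap5 (-2.12). The exceptions were Prelp (1.05), Sparcl1 (0.92), Fbln5 (0.37) and Thbs1 (0.28), for which it was the highest tumour, and Cyr61 (0.02). Tumours 1 and 2 differed from each other by a median of 0.20 log2 units over the members, whatever the direction, and pairs of glands by 0.11 to 0.16. These are descriptions of single libraries, with no test.

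**Figure D4:**
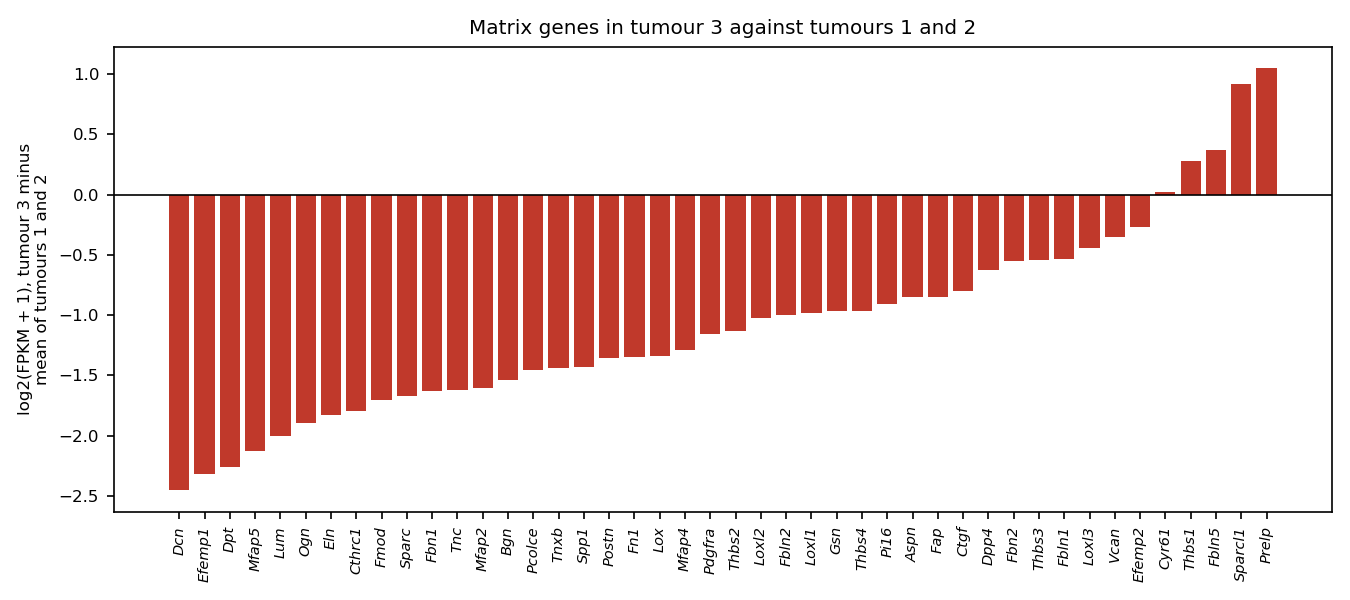
Difference in log2(FPKM + 1) between tumour 3 and the mean of tumours 1 and 2 for each of the 44 matrix genes, sorted. Bars reach -2.45 for Dcn and -2.32 for Efemp1, and only Cyr61, Thbs1, Fbln5, Sparcl1 and Prelp are at or above 0, up to 1.05.

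Other genes of the same families, and other fibroblast genes, gave a similar balance. Of 109 such genes, 80 were tested, and 53 fell, 7 rose and 20 did not pass, with a median log2 fold change of -1.44. Of all tested genes, 23.1% were lower and 21.9% higher, and the same shares stand beside the class counts below. Among other fibroblast genes 15 of 20 fell, including the transcription factor genes Twist1 (-2.83, SE 0.19, adjusted p = 8.7e-05) and Osr1 (-2.82, SE 0.20) and the basement membrane zone collagen Col15a1 (-2.58, SE 0.16). The collagenase Mmp13 was the 1 that rose there, at 3.47, 2.39 and 2.54 FPKM in tumours 1 to 3 and 0.246, 0.180 and 0.257 FPKM in glands 1 to 3 (1.62, SE 0.19, adjusted p = 6.6e-04). Of other cross-linking and processing genes 12 of 21 fell and 2 rose. Pcolce2, the relative of Pcolce, fell by 3.56 (SE 0.24, adjusted p = 9.0e-05), while Plod2, the lysyl hydroxylase that directs the stable type of collagen cross-link, rose by 1.86 (SE 0.28, adjusted p = 0.00199), at 21.6, 21.4 and 12.0 FPKM in the tumours and 3.49, 5.98 and 3.37 FPKM in the glands. The prolyl hydroxylase P3h2 rose by 0.95 (SE 0.19). In the elastic fibre group 7 of 10 fell and 1 rose: the TGF-beta binding protein Ltbp4 fell by 2.33 (SE 0.20) and Ltbp1 rose by 0.76 (SE 0.15, adjusted p = 0.0073). In the glycoprotein group 12 of 21 fell and 3 rose. The basement membrane linker nidogen 1 (Nid1) fell by 3.18 (SE 0.28), and nephronectin (Npnt, 1.74, SE 0.21), Crispld2 (1.60, SE 0.31) and the cartilage and tendon protein Comp (1.68, SE 0.48) rose, the last without a call when gland 1, 2 or 3 was left out (adjusted p = 0.0698, 0.0651 and 0.0719). Comp stood at 1.24 to 7.67 FPKM in the tumours, highest in tumour 3, and at 0.163 to 0.268 FPKM in the glands, and without tumour 3 its mean was too low for it to be tested. Of 8 tested proteoglycan and hyaluronan genes 7 fell, such as perlecan (Hspg2, -2.08, SE 0.24). In each class, the most abundant gene that did not pass was Srgn (-0.28, 95% interval -1.06 to 0.49), Ltbp3 (0.34, -0.12 to 0.80), Mgp (-0.56, -1.60 to 0.48), Ppib (0.13, -0.43 to 0.69) and S100a4 (-1.43, -3.30 to 0.43). Without tumour 3, S100a4 stood at -0.46 and Mgp at -0.00985, and Ppib passed as higher (0.41, adjusted p = 0.0245). With glands 1 and 3 left out together, 18 of these genes were called.

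Markers of other cell types also differed between the groups. All 6 fibroblast markers, which include members, fell, with summed levels of 120.4 to 417 FPKM in the tumours and 1802 to 1939 FPKM in the glands. All 6 luminal epithelium markers rose, with sums of 2552 to 2756 FPKM in the tumours and 919 to 981 FPKM in the glands. All 6 adipocyte markers fell, at 33.3 to 226 FPKM in the tumours against 6259 to 7587 FPKM in the glands, and all 6 endothelial markers, at 20.9 to 43.2 FPKM in the tumours against 200.1 to 246 FPKM in the glands. Of 6 pericyte and smooth muscle markers 5 fell (23.3 to 34.9 FPKM in the tumours, 144 to 335 FPKM in the glands), of 6 macrophage markers 3 fell (271 to 599.9 FPKM in the tumours, 563 to 629.6 FPKM in the glands) and of 6 myoepithelial markers 3 fell (92.1 to 294 FPKM in the tumours, 522 to 562 FPKM in the glands). Most of the myoepithelial sum in the glands was Acta2, at 339, 312 and 349 FPKM in glands 1 to 3. Krt14, Krt5 and Trp63 overlapped between the groups and did not pass. Krt14 stood at 137, 133 and 39.7 FPKM in tumours 1 to 3 and 87.3, 94.3 and 85.3 FPKM in glands 1 to 3. Krt5 was likewise above the glands in tumours 1 and 2 and below them in tumour 3. Of 6 lymph node markers 1 fell (1.56 to 31.2 FPKM in the tumours, 24.2 to 138 FPKM in the glands) and of 6 skeletal muscle markers none passed (0 of 6 in limma). Of 6 neutrophil markers 1 rose, S100a8, and 5 did not pass, with sums of 269.5 to 3168 FPKM in the tumours and 25.7 to 48.7 FPKM in the glands. S100a8 alone stood at 259 to 3100 FPKM in the tumours, so that sum is mainly 1 gene, and Csf3r had every tumour below every gland. Of 6 Schwann cell markers 4 fell and 2 rose (134 to 245 FPKM in the tumours, 101 to 128 FPKM in the glands). Most of the Schwann cell sum in the tumours was Sox10, at 121, 152 and 229 FPKM in tumours 1 to 3. No marker of these lists was at 0 in all libraries of a group. The cartilage and bone list was too low to be tested, at 0.564 to 0.926 FPKM in the tumours and 0 to 0.322 FPKM in the glands, and 2 of its 6 markers were listed at 0 in all tumours and 3 in all glands. Among the tumours, the fibroblast, myoepithelial, adipocyte, endothelial, macrophage, lymph node and neutrophil sums were lowest in tumour 3. The luminal, pericyte and smooth muscle, skeletal muscle, Schwann cell, and cartilage and bone sums were highest there. In the pericyte and smooth muscle sum this came mainly from Notch3, at 5.53, 9.45 and 20.6 FPKM in tumours 1 to 3. Tumour 3 was the highest tumour for 2 of those 6 markers, Notch3 and Abcc9, and the lowest for the other 4. The part of these cell types in the values of the matrix genes was not tested.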

How the data were processed

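RNA of 3 mammary tumour and 3 mammary gland libraries was analysed from 1 table of 24421 gene symbols. The authors deposited normalised values without naming a unit, and these were taken as FPKM because they were not whole and summed to different totals per library. HISAT2, StringTie and mm10 are named in the submitters' processing notes, without versions or roles, and no source used here states the annotation, the read counts or whether strand was used. From the deposited values, taken as FPKM, log2(FPKM + 1) was tested with limma 3.58.1 (R 4.3.3, mean-variance trend, 2-sided, Benjamini-Hochberg, threshold 0.05) for the 13364 genes averaging 1 FPKM or more. FPKM values carry no counts, so counting error did not enter.

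The members, the gene lists and the tests were chosen with earlier results of these data known. Every member is accounted for. Other genes named are a subset of up to 3 per role and direction with the smallest p and the most abundant that did not pass in each role, except Omd, Kera and Epyc, named for their position, and Col3a1 and Col1a1. A planned test of members relative to the collagens was not used, since on simulated data the error shared through the collagen mean gave calls in unchanged genes, so values alone are given. Locations are from GENCODE M21. Alternatives were other pseudocounts, filters, scalings and weights, a replicate block, and libraries left out. Averaging tumours 1 and 2 was chosen after seeing the data.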

Additional observations from a re-analysis of the deposited data

How the results depend on the processing

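Of the 34 members that passed, 23 kept their call whichever 1 library was left out, and 11 lost it at least once, as given with each gene. Without 1 library, 23 to 36 of the 43 tested members passed, 2 to 6 of them higher and 21 to 30 lower. The fewest passed without gland 3 and the most without tumour 3, and calls over all tested genes moved as well. Without gland 3, 2043 of 13264 genes passed as higher and 2174 as lower. Without tumour 3, 3094 of 13401 passed as higher and 3308 as lower, against 2933 and 3090 of 13364 with all libraries. The strongest effect among the settings tried was that of leaving out glands 1 and 3 together, which leaves 1 gland that is assumed to vary like the other libraries: 6 members passed, 0 higher and 6 lower, and 28 calls were lost, none with a change of direction. By the same fit 18 other matrix genes passed, 1 higher and 17 lower, and 0 fibrillar collagens, 0 of them lower, where 760 of all 13066 tested genes passed as higher and 1098 as lower.  Of the genes that rose, 3 passed when a fold change of at least 2 was also required, and 3 with tumours 1 and 2 averaged as 1 sample, which was chosen after seeing the data.

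Signs turned in 2 members, neither of which had passed: Cthrc1 stood at 0.0364 with array weights and between -0.668 and 0.323 without 1 library, and Ctgf at -0.0356 under quantile normalization, -0.00313 at a common sum, -0.0692 with tumours 1 and 2 averaged, and between -0.0810 and 0.331 without 1 library. Among the other matrix genes named, signs turned in 2 that had not passed: Srgn stood at 0.126 without glands 1 and 3 and between -0.574 and 0.0387 without 1 library, and Ppib at -0.0020 under quantile normalization, -0.0074 with tumours 1 and 2 averaged and between -0.0699 and 0.406 without 1 library. Quantile normalization put the median change over all genes at 0.12, against 0.01 without it. Same-numbered libraries did not deviate together (r = -0.054, -0.118 and -0.124 for the 3 numbers). The labels state no pairing, and deviations of 3 libraries per group cannot exclude a pairing. With the replicate number as a block, 33 members passed, and the call of Vcan was lost (adjusted p = 0.057). With no filter, Mfap5 lost its call (adjusted p = 0.050) and Fbn2 did not pass (-0.23, adjusted p = 0.383). With array weights, Aspn, Sparcl1 and Loxl3 gained calls (adjusted p = 0.0424, 5.7e-04 and 0.0322), and Aspn also did at a common sum (adjusted p = 0.0402). The number of members lower relative to the collagens was 13, and 13 to 16 under the alternatives, where 5.97% of all tested genes were lower. The cause of these changes was not tested.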
